A study of Mus musculus with 6 samples.

Results

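The Hox genes of the mouse were followed in RFC1-/- embryos and their RFC1+/+ littermates at embryonic day 9.5, along the 4 Hox clusters A to D and by paralog number. The members were set by name, as 38 genes of the 4 clusters, and a gene counted as measured when a probe set of the Affymetrix mouse genome array was annotated to its symbol and no other. By this rule 33 of the 38 genes were measured, on 48 of the 45101 probe sets, and Hoxa6, Hoxb8, Hoxc11, Hoxc12 and Hoxd4 were not analysed here. The 33 were 9 genes of cluster A, 9 of cluster B, 7 of cluster C and 8 of cluster D. Counted by paralog number, 10 belonged to groups 1 to 4, 9 to groups 5 to 8 and 14 to groups 9 to 13.

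Hox genes encode homeodomain transcription factors that give cells of the trunk, hindbrain and limbs their position along the body axis. Within a cluster the genes lie in the order of their paralog number, and those of low number are switched on earlier and reach further forward than those of high number. Paralogs of low number act in the hindbrain and branchial arches, those of middle number in the neck and thorax, and those of high number in the lumbar and sacral trunk, the tail bud, the limbs and the genital region. Cdx factors and retinoic acid are known to switch on Hox genes, and proteins of the TALE family (Pbx, Meis and Pknox) bind DNA together with them.

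RFC1, whose mouse gene symbol is Slc19a1, encodes the reduced folate carrier. Both groups held 3 whole embryos, 1 embryo per array, and the embryos formed 3 littermate pairs. The RFC1+/+ embryos had a normal neural tube and a normal chorioallantois, whereas the RFC1-/- embryos had craniorachischisis, a neural tube that fails to close from midbrain to tail, and their allantois had not fused with the chorion. All embryos came from RFC1+/- dams on the SWV background, into which the mutation had been moved from a C57BL/6J hybrid stock, and every dam received 25 mg/kg folic acid under the skin each day from early gestation, so no group without added folate was compared. Embryos had been freed of decidua, chorion and amnion, and the extraembryonic membranes had served for genotyping. RNA of whole embryos mixes all tissues, so fewer cells of a type and less RNA per cell cannot be told apart. The study describes RFC1-/- embryos as delayed in development beside RFC1+/+ littermates, on a later day than the one used here. The labels give the day but no stage of the single embryos, so littermates cannot be taken as matched in stage. The part of stage in the differences below was not tested.

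Values are log2 expression levels, and a difference is the level in the RFC1-/- embryo minus that in its RFC1+/+ littermate, so that a difference of 1 is a doubling. Levels of different probe sets are not set against each other. A gene was called when its Benjamini-Hochberg adjusted p over 18194 genes was under 0.05 in a limma fit that blocked on litter. The arrays had medians from 5.43 to 5.49 and correlated pairwise at 0.984 to 0.996. A dim floor of 5.16 was set from 83 probe sets of sensory receptor genes, which an embryo of this age should hardly express, and 26 of the 33 Hox genes had a mean above it in at least 1 of the groups. The other 7, Hoxa4, Hoxa13, Hoxb7, Hoxb13, Hoxc13, Hoxd11 and Hoxd12, lay at or under it in both groups. Slc19a1 itself was higher in the RFC1-/- embryos by 0.93, and its probe set cannot check the genotypes while the deleted stretch of the gene is unknown from the labels and methods used here.

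Promoter sequence from RefSeq (GRCm38.p6) was held for 19 of the 33 measured genes, in 21 windows of 300 bases around the transcription start, and 3 windows are shown because their genes carry the results below. Hoxa2, an anterior gene, and Hoxa5, a middle gene, both of cluster A, were lower in the RFC1-/- embryos. Hoxd8 was low in a single RFC1+/+ embryo, together with genes further along the clusters. Capitals mark matches, on either strand, to 3 motifs searched: TTTATG, a core bound by Cdx factors, AGGTCA, a half-site of retinoic acid receptors, and TGATTGAT, a site for Pbx together with Hox. The windows were chr6:52164782-52165081 (minus strand) for Hoxa2, chr6:52204538-52204837 (minus strand) for Hoxa5 and chr2:74704365-74704664 (plus strand) for Hoxd8.
Hoxa2: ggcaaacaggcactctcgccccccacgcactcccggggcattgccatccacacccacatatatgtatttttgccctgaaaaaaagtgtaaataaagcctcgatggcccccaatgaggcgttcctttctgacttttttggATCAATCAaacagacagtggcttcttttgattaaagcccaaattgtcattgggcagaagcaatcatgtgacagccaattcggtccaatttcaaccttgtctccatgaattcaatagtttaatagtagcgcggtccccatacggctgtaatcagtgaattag
Hoxa5: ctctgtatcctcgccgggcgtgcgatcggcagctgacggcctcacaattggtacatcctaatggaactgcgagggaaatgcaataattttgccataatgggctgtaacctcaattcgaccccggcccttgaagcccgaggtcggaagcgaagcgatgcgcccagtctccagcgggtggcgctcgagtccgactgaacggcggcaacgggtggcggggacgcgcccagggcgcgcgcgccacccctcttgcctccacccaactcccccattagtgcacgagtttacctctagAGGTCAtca
Hoxd8: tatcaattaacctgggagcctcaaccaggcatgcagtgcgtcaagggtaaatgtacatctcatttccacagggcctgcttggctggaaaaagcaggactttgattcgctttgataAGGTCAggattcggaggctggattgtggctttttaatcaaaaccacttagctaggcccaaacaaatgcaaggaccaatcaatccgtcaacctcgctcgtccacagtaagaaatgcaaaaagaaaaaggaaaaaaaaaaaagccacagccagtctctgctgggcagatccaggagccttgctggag

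The Hoxa2 window holds the Pbx-Hox letters once, and the windows of Hoxa5 and Hoxd8 each hold the retinoic acid receptor half-site once. TGATTGAT was found in 9.52% of the Hox windows, those of Hoxa2 and Hoxd11, and in 0.746% of all 32851 promoters of the same length. AGGTCA was found in 28.6% of the Hox windows, those of Hoxa5, Hoxb4, Hoxc4, Hoxd3, Hoxd8 and Hoxd10, against 16.3% of all promoters. TTTATG stood in 14.3% of the Hox windows, those of Hoxa7, Hoxd3 and Hoxd11, against 11.9% of all promoters. The median GC content was 58.0% in the Hox windows and 52.7% in all promoters. The 3 motifs differ in letters and were counted apart, and a match describes the letters of a window, not a bound site.

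One embryo must be set out before the comparison. In the RFC1+/+ embryo of litter 2, genes of high paralog number were low against all 5 other embryos, RFC1+/+ and RFC1-/- alike. Over all 18194 genes, only 8 lay at least 1 log2 unit below all 5 other embryos there, and 5 of these were Hox genes: Hoxc10, Hoxa10, Hoxd13, Hoxa9 and Hoxd8. The other 3 were Cdx4, a caudal homeobox gene of the tail bud, Tbx4, a T-box gene of the allantois and hindlimb, and the unnamed transcript 2610528A11Rik. None of the other 5 embryos had a Hox gene that stood below the rest by as much, and they had between 0 and 3 genes of any kind that did. Other embryos stood apart upward: 57 genes of the RFC1-/- embryo of litter 3 lay at least 1 unit above all others. In the RFC1+/+ embryo of litter 1, 21 genes did, and 0 Hox genes were among either. The RFC1+/+ embryo of litter 2 was the lowest of the 6 for 16 of the 33 Hox genes, against 12.9% of all genes. It was also lowest for 8 of the 9 genes of paralog groups 9 to 13 above the floor.

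Hoxc10, a gene of the lumbar cord and hindlimb, showed the widest gap. In litters 1, 2 and 3 its level was 7.92, 3.94 and 7.51 in RFC1+/+ and 6.48, 6.39 and 6.31 in RFC1-/- embryos, the order used for all genes below. The litter 2 value stood 2.37 below the lowest of the others and under the floor. Hoxa10, which gives lumbar vertebrae their ribless form, measured 6.97, 4.78 and 6.96 in RFC1+/+ and 6.75, 6.63 and 7.26 in RFC1-/- embryos. Hoxd13, a gene of the hindgut end, genital region and digits, measured 7.04, 4.36 and 6.19 in RFC1+/+ and 7.04, 6.35 and 6.82 in RFC1-/- embryos. In each of these genes the RFC1-/- values lay within 1 log2 unit of each other, and the width of the RFC1+/+ group came from litter 2.

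Hoxa9, which acts in the posterior thorax, measured 11.15, 9.78 and 11.54 in RFC1+/+ and 11.49, 11.12 and 11.39 in RFC1-/- embryos. Hoxd8 measured 8.30, 6.72 and 8.19 in RFC1+/+ and 8.44, 8.06 and 8.17 in RFC1-/- embryos. In litters 1 and 3 their differences between genotypes lay between -0.15 and 0.34. A further probe set of Hoxd8 was also lowest there, at 6.43 against 7.11 to 7.61 in the other embryos, and one of Hoxa9 likewise, at 6.11 against 6.33 to 6.44. The further probe sets of Hoxa10 and Hoxd13 lay under the floor and did not separate this embryo.

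The posterior genes short of the 1 unit gap leaned the same way. Hoxd10, at 6.63, 5.00 and 6.23 in RFC1+/+ embryos, stood 0.97 below all others in litter 2. Hoxd9 measured 8.09, 6.90 and 8.18 in RFC1+/+ embryos and stood 0.72 below, and Hoxa11 measured 6.86, 5.71 and 5.99 and stood 0.28 below. Hoxc9 and the middle gene Hoxc8 were lowest in the same embryo, each by 0.36. Hoxb9 was the exception among the 9, with 5.73, 5.67 and 5.59 in RFC1+/+ embryos and no dip in litter 2.

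**Figure D1:**
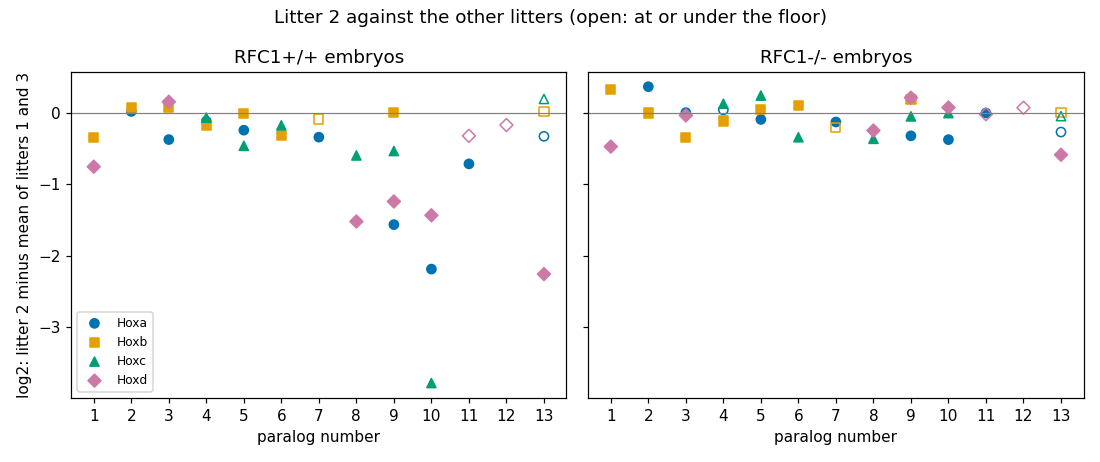
Log2 level in litter 2 minus the mean of litters 1 and 3 for each measured Hox gene (points, coloured by cluster; open points at or under the dim floor) against paralog number, for RFC1+/+ embryos on the left and RFC1-/- embryos on the right. In RFC1+/+ embryos the points of groups 8 to 13 fall to -3.78 for Hoxc10, while in RFC1-/- embryos all genes lie between -0.59 and 0.36.

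Of 13 measured genes listed as activators or retinoid regulators of the Hox clusters, 4 were lowest of the 6 in that embryo, among them Cdx4 and Cdx2, against 12.9% of all genes. Cdx4, the strongest case of all genes, measured 6.72, 4.11 and 8.28 in RFC1+/+ and 7.90, 7.46 and 7.43 in RFC1-/- embryos. Cdx2, a related caudal gene that acts on Hox transcription in the tail bud, measured 7.41, 6.64 and 8.89 in RFC1+/+ and 8.81, 8.78 and 8.54 in RFC1-/- embryos. Tbx4, which is not on that list, measured 6.16, 4.06 and 7.11 in RFC1+/+ and 7.39, 8.39 and 8.63 in RFC1-/- embryos. Cdx2 and Cdx4 were thus lower in litter 1 than in litter 3 as well, among the RFC1+/+ embryos, an order that Hoxc10, Hoxd10 and Hoxd13 did not follow. Because each litter gave 1 RFC1+/+ embryo, litter and embryo cannot be told apart among the RFC1+/+ embryos. Against the mean of litters 1 and 3, the RFC1-/- embryo of litter 2 differed by -0.59 to 0.36 over the Hox genes. The RFC1+/+ embryo of litter 2 fell to -3.78 by the same measure. What set this RFC1+/+ embryo apart was not tested, and results on posterior genes are given below with and without it.

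Between genotypes, 4 of the 33 Hox genes were called lower in the RFC1-/- embryos, namely Hoxa2, Hoxa4, Hoxa5 and Hoxc5, and none was called higher. Over all 18194 genes, 1.65% were called lower and 3.67% higher. At an unadjusted p under 0.05, 11 Hox genes were lower, against 8.05% of all genes, and 2, Hoxd1 and Hoxd13, higher, against 10.4% of all genes. The random-variance paired test of the methods also called 4 lower and 0 higher after adjustment, with 2 higher before it. All 3 RFC1-/- embryos lay below all 3 RFC1+/+ embryos in 9 of the 33 Hox genes, against 13.4% of all genes, and above them in 0, against 12.8% of all genes. With probe sets as the unit, 3 of the 48 were called lower, the probe set of Hoxa2 and 1 each of Hoxa5 and Hoxc5, against 0.882% of all probe sets. The median difference was -0.07 over the 33 Hox genes and -0.01 over all genes.

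**Figure D2:**
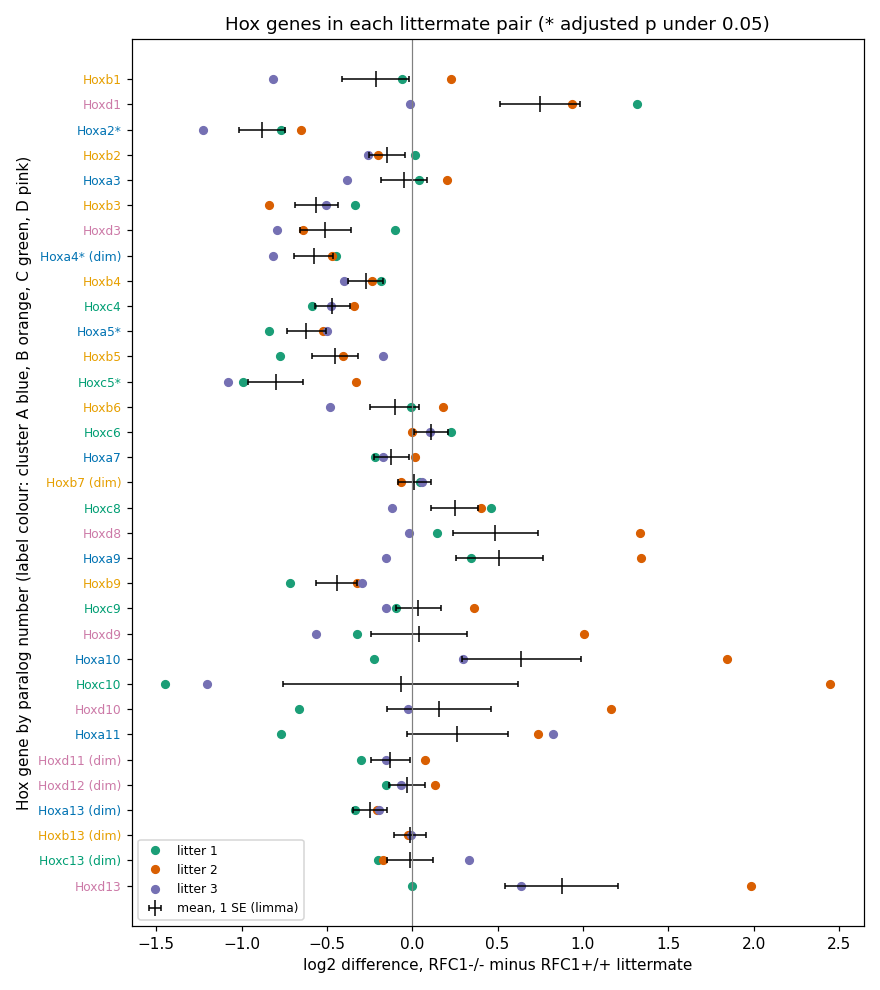
Log2 difference, RFC1-/- minus RFC1+/+ littermate, for each of the 33 measured Hox genes in order of paralog number; dots are the 3 litters, black bars the mean with 1 SE from limma, asterisks the genes called, and label colours the clusters. The 4 called genes lie to the left in every litter, between paralog groups 2 and 5, and the litter 2 dots of Hoxd8, Hoxa9, Hoxd9, Hoxa10, Hoxc10, Hoxd10 and Hoxd13 lie to the right at 1.01 or more.

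Differences below 0 were most frequent in paralog groups 1 to 4, the genes of the hindbrain, branchial arches and neck. Of these 10 genes, 9 had a mean difference below 0, against 9817 of all 18194 genes, and 2 were called lower. Among the 9 were Hoxa4, under the floor, and Hoxa3, at -0.05 and at 0.08 on another probe set above the floor. The median difference of the 10 genes was -0.37 over the litters, and -0.14, -0.29 and -0.49 in litters 1, 2 and 3. Groups 5 to 8 had a median of -0.10, with 2 of 9 genes called lower. Groups 9 to 13 had a median of 0.01 and 0 of 14 genes called, in either direction, and for the 9 of them above the floor the median was -0.32, 1.16 and -0.15 in litters 1, 2 and 3. So the posterior median was above 0 in litter 2 alone, the litter with the RFC1+/+ embryo described above.

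Hoxa2, the selector gene of the second branchial arch that also patterns the hindbrain, had the largest fall of the Hox genes. It measured 6.73, 6.75 and 6.73 in RFC1+/+ and 5.96, 6.09 and 5.50 in RFC1-/- embryos. The groups did not overlap, and the RFC1+/+ values were nearly equal. The difference was -0.88 ± 0.13 (SE, 3 pairs), a level 1.84-fold lower, with an adjusted p of 0.0174 in limma. Without the RFC1+/+ embryo of litter 2, in an unpaired limma fit of 5 arrays, the difference was -0.88 with an adjusted p of 0.0776.

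Hoxa5, which shapes the cervical vertebrae and the lung, measured 8.67, 8.20 and 8.21 in RFC1+/+ and 7.83, 7.68 and 7.71 in RFC1-/- embryos. The groups did not overlap, and the difference was -0.62 ± 0.11 (SE), 1.54-fold lower, with an adjusted p of 0.0294 in limma. A further probe set of Hoxa5 differed by -0.29 and was not called. Hoxc5, its paralog in cluster C, measured 8.53, 7.83 and 8.05 in RFC1+/+ and 7.54, 7.50 and 6.97 in RFC1-/- embryos. This pair of groups was also separate, with a difference of -0.80 ± 0.16 (SE), 1.74-fold lower, and an adjusted p of 0.0383. The 2 further probe sets of Hoxc5 differed by -0.20 and -0.32 and were not called. Hoxb5, the paralog in cluster B, differed by -0.45 with separate groups and an adjusted p of 0.123. It was called without litter 3, at -0.59 with an adjusted p of 0.0410. That litter held its smallest difference, -0.17, so this call rests on which pair was left out.

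Hoxa4, a gene of the neck vertebrae, measured 4.78, 4.74 and 4.94 in RFC1+/+ and 4.34, 4.27 and 4.13 in RFC1-/- embryos. The difference was -0.58 ± 0.12 (SE), with an adjusted p of 0.0387, but all 6 values lay under the floor, where the array gives little measure of a level. Leaving out any of the litters took its adjusted p past the threshold, to 0.123, 0.0772 and 0.0563 without litters 1, 2 and 3. Hoxa5 lost its call without litter 1 (adjusted p of 0.195) or litter 2 (0.0604), and Hoxc5 without litter 1 (0.164) or litter 3 (0.0593). Hoxa2 kept its call without each litter in turn. All 4 differences stayed below 0, which had to follow because each gene was lower in every litter.

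**Figure D3:**
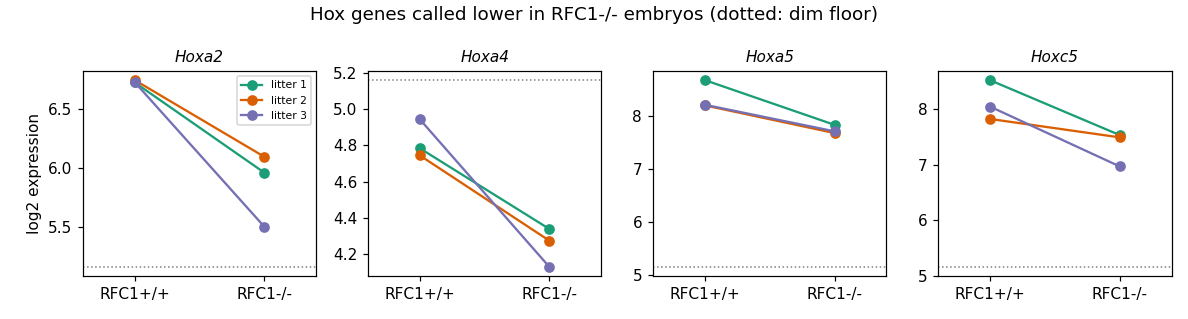
Log2 expression of Hoxa2, Hoxa4, Hoxa5 and Hoxc5 in each RFC1+/+ embryo and its RFC1-/- littermate, joined by litter; the dotted line is the dim floor of 5.16, and each panel has its own axis. Every line falls from RFC1+/+ to RFC1-/-, and all Hoxa4 values lie under the floor.

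Hoxb3 and Hoxc4 lay just outside the threshold, and Hoxd3 further from it. Hoxb3, a gene of the hindbrain and the throat, differed by -0.56 (adjusted p of 0.0534), and measured 9.49, 9.48 and 9.33 in RFC1+/+ and 9.16, 8.64 and 8.82 in RFC1-/- embryos. Hoxc4 differed by -0.47 (adjusted p of 0.0527), from 8.65, 8.42 and 8.33 in RFC1+/+ to 8.06, 8.08 and 7.86 in RFC1-/- embryos. Hoxd3, which acts in the first neck vertebrae, measured 7.02, 7.47 and 7.62 in RFC1+/+ and 6.92, 6.84 and 6.83 in RFC1-/- embryos, a difference of -0.51 with an adjusted p of 0.115. In all 3 genes the groups did not overlap. Hoxb4 differed by -0.27, Hoxb1 by -0.21, Hoxb2 by -0.15 and Hoxa3, a gene of thymus and parathyroid, by -0.05, with overlapping groups.

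Hoxd1, the remaining gene of groups 1 to 4, went the other way in 2 of 3 litters. It measured 6.46, 6.25 and 7.55 in RFC1+/+ and 7.78, 7.19 and 7.54 in RFC1-/- embryos, a difference of 0.75 with an adjusted p of 0.139. The RFC1+/+ embryo of litter 3 was at the level of the RFC1-/- embryos. Without litter 3 the difference was 1.13 and was called, with an adjusted p of 0.00402 in limma. Litter 3 was the only litter in which Hoxd1 did not rise, so this call rests on which pair was left out. Hoxb1, the other measured gene of paralog group 1 and a gene of the hindbrain, measured 8.45, 8.39 and 9.02 in RFC1+/+ and 8.39, 8.62 and 8.21 in RFC1-/- embryos, so neither gene moved one way in all litters.

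None of the middle genes past group 5 was called. Hoxd8, described above, had the widest mean difference of these, 0.49, with 1.33 in litter 2 and 0.14 and -0.02 in litters 1 and 3. Hoxa7 differed by -0.12, Hoxb6 by -0.10, Hoxb7 by 0.01, Hoxc6 by 0.11 and Hoxc8, a gene of the lower neck and upper thorax, by 0.25. Hoxc8, the largest rise of cluster C, measured 8.52, 8.16 and 8.99 in RFC1+/+ and 8.98, 8.56 and 8.87 in RFC1-/- embryos, and the groups overlapped. Hoxb7, the largest rise of cluster B, measured 4.28, 4.19 and 4.27 in RFC1+/+ and 4.33, 4.13 and 4.33 in RFC1-/- embryos, all under the floor.

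Among the genes of groups 9 to 13, Hoxb9 differed by -0.44 with groups that did not overlap and an adjusted p of 0.0958, at 5.02, 5.35 and 5.30 in RFC1-/- embryos. Hoxd13 had the largest mean difference, 0.87 with an SE of 0.33, and Hoxa10 had 0.64 with an SE of 0.35. Both differences came mostly from litter 2, where they were 1.99 and 1.85, against 0.00 and -0.22 in litter 1 and 0.64 and 0.30 in litter 3. Hoxa9, Hoxa11 and Hoxd10 differed by 0.51, 0.26 and 0.16, and Hoxd9 and Hoxc9 by 0.04 each. None of these was called.

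Hoxc10 was called lower once litter 2 was left out, but Hoxc10 itself helped to set the RFC1+/+ embryo of that litter apart. Its adjusted p values without that embryo thus follow a choice made on the same values and are no independent test. The differences of Hoxc10 were -1.45, 2.45 and -1.20 in litters 1, 2 and 3, with a mean of -0.07 and an adjusted p of 0.982. Without litter 2 the difference was -1.32 with an adjusted p of 0.00427 in limma, and without the RFC1+/+ embryo of litter 2 alone, in the unpaired fit of 5 arrays, it was -1.33 with an adjusted p of 0.0312. In that fit Hoxc10 was the only Hox gene called. The mean differences of Hoxa9, Hoxa10, Hoxd8, Hoxd9, Hoxd10 and Hoxc9, and of the dim genes Hoxb7 and Hoxc13, changed sign there, and none of these 8 was called. For the Hox genes that were lowest in that embryo, leaving it out could only lower the difference. Such shifts are therefore no separate result. Hoxd13 differed there by 0.12, Hoxa11 by 0.03, Hoxa10 by -0.09, Hoxa9 by -0.01 and Hoxb9 by -0.44. The median of groups 9 to 13 was -0.12 in that fit and -0.12 without litter 2, against 0.01 with all embryos, so its sign rests on this litter. This shift follows from the same choice.

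**Figure D4:**
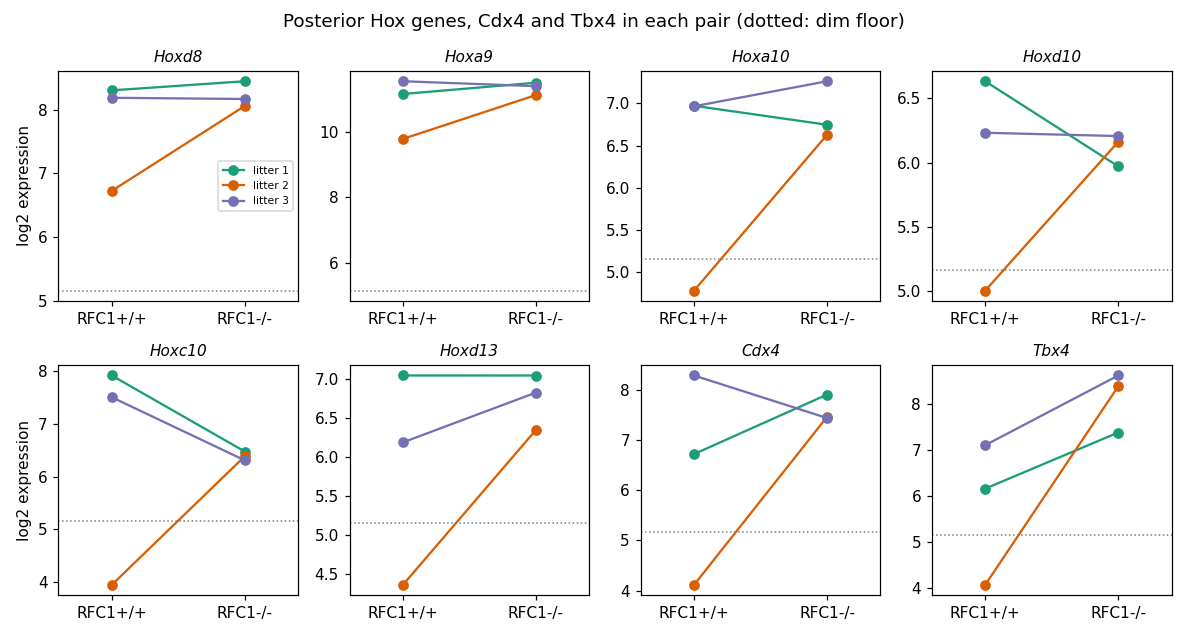
Log2 expression of 6 Hox genes of groups 8 to 13, Cdx4 and Tbx4 in each RFC1+/+ embryo and its RFC1-/- littermate, joined by litter; the dotted line is the dim floor of 5.16, and each panel has its own axis. The orange litter 2 line starts lowest in every panel, while Hoxc10 falls in litters 1 and 3 from 7.92 and 7.51 to 6.48 and 6.31.

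The 6 dim genes other than Hoxa4 differed by between -0.25 and 0.01, none of them called. Of these, Hoxa13 lay between 3.75 and 4.34 in all embryos and was lower in each RFC1-/- littermate, at an unadjusted p of 0.0426 and an adjusted p of 0.247. Hoxb13 lay at 4.14 to 4.17, Hoxc13 at 4.40 to 4.74, Hoxd11 at 4.27 to 4.66 and Hoxd12 at 3.42 to 3.60.

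By cluster, 3 of 9 genes of cluster A, with the dim Hoxa4 among them, and 1 of 7 of cluster C were called lower, against 1.65% of all genes. None of the 9 of cluster B or the 8 of cluster D was called. Cluster B had 8 of 9 mean differences below 0, with a median of -0.21. Cluster D had a median of 0.10, with 0.97 in litter 2 against -0.13 and -0.04 in litters 1 and 3. Cluster D was also the cluster with the most genes lowest in the RFC1+/+ embryo of litter 2, 7 of 8, against 1 of 9 in cluster B and 12.9% of all genes.

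Along the paralog number, differences of the 26 genes above the floor correlated with r = -0.23 in litter 1, 0.68 in litter 2 and 0.52 in litter 3. The mean over the 3 litters gave 0.53, and the mean of litters 1 and 3 alone 0.15. These values describe genes that share arrays and clusters and carry no test. A rise of the difference with paralog number was thus present in litters 2 and 3 and not in litter 1. The value of litter 2 includes the RFC1+/+ embryo with low posterior genes.

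**Figure D5:**
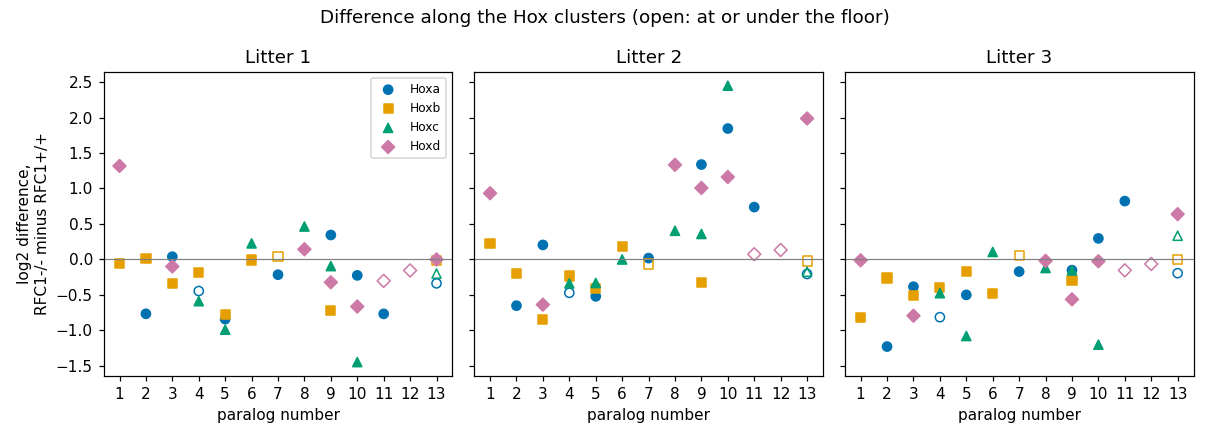
Log2 difference, RFC1-/- minus RFC1+/+ littermate, against paralog number for the 33 measured Hox genes in each litter; colours and shapes are the clusters and open points lie at or under the dim floor. Points of groups 2 to 5 lie mostly below 0 in all litters, whereas points of groups 8 to 13 rise to 2.45 in litter 2 and not in litter 1.

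Among partners and regulators of the Hox genes, few were called. Of 8 measured TALE genes, Pbx3 was called lower, at -0.56 with an adjusted p of 0.0367, and all 8 mean differences were below 0. Meis2 and Meis1 differed by -0.46 and -0.49 with adjusted p of 0.0650 and 0.0776. The 13 measured genes listed as activators or retinoid regulators held 1 called lower, Cyp26b1, and 1 called higher, Gata4. Cyp26b1, an enzyme that breaks down retinoic acid in the hindbrain and limbs, differed by -0.63 (adjusted p of 0.0475). Cyp26a1, the related enzyme of the tail bud, differed by 0.78 (adjusted p of 0.0528), at 8.78, 8.12 and 9.19 in RFC1+/+ and at 9.35 to 9.57 in RFC1-/- embryos. Aldh1a2, which makes retinoic acid, differed by -0.37 (adjusted p of 0.205), and Rarb, a receptor, by -0.47 (adjusted p of 0.0941). Gata4, which differed by 0.57 (adjusted p of 0.0252), is best known from heart and endoderm.

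Cdx2 and Cdx4 differed by 1.06 and 1.23, with SE of 0.41 and 0.66 and adjusted p of 0.226 and 0.406, and were higher in litters 1 and 2 and lower in litter 3. Of 14 measured genes of axis elongation and the tail bud, among them Tbx6, Wnt3a, Fgf8 and Msgn1, none was called in limma, with 1 lower and 1 higher at an unadjusted p under 0.05, and their median was -0.04. For 4 of the 14, Tbx6, Nkx1-2, Hes7 and Evx1, the RFC1+/+ embryo of litter 2 was the lowest, against 12.9% of all genes. Nkx1-2 had the widest gap of these, 0.52 below the next embryo. Of 20 measured chromatin regulators of the clusters, Bmi1 of the Polycomb complex was called lower, at -0.51, and 2 others, Ezh1 and Cbx7, higher, by 0.61 and 0.81. Of 13 measured neighbours of the clusters, Skap2, beside cluster A, was called lower, at -0.51 (adjusted p of 0.0481), and the median of the neighbours was -0.02.

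The tissues in which Hox genes act also differed between the groups. Over all genes, 1.65% were called lower and 3.67% higher, the shares to set beside the counts of the lists below. Of 14 measured neural tube genes, 7 were called lower and 0 higher, with Neurog1, Fabp7, Pax6 and Olig2 at log2 differences of -2.32, -1.44, -1.30 and -1.12. Of 11 measured genes of paraxial mesoderm, which forms the vertebrae and muscles, 5 were called lower, with Pax3, Meox2, Myf5 and Pax1 at -1.25, -0.96, -0.63 and -0.62, and 1, Pax9, higher at 0.52. The summed linear level of the neural tube list was 5532 to 6131 in RFC1+/+ and 3284 to 4641 in RFC1-/- embryos. That of the paraxial list was 2622 to 2937 and 1705 to 2214. The 2 lists had medians of -0.51 and -0.58, beside -0.37 for Hox groups 1 to 4, and their part in the Hox differences was not tested.

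Of 9 limb bud genes, Tfap2b and Prrx1 were called lower, at -1.10 and -1.06, and 0 higher. Their list had no common direction, with 5 means above 0, 4 below and a median of 0.003. Tbx4, on this list and the next, had its largest rise. Of 6 genes of the allantois, the bud that joins the embryo to the chorion, Bmp4 and Vcam1 were called higher, by 1.12 and 0.95, and Tbx4 differed by 2.36 with an adjusted p of 0.0604. The heart list had 6 of 8 genes called higher, led by Tbx20, Tnnt2, Myl7 and Myh7 at 0.97, 0.94, 0.84 and 0.79. All 11 visceral endoderm genes were called higher, with Cubn, Apoa1, Apob and Fgg at 5.15, 5.12, 4.81 and 3.98. The study had already reported Cubn, Apoa1, Ttr and Rbp4 of this list as raised on these arrays, so the endoderm count is no independent result. All 8 primitive erythroid genes were called lower, with Hba-x, Slc4a1, Hbb-bh1 and Hbb-y at -5.11, -5.01, -4.67 and -3.70. Summed linear levels of the endoderm list were 1958 to 5745 in RFC1+/+ and 22151 to 56776 in RFC1-/- embryos, and those of the erythroid list 28446 to 41508 and 886 to 4462. The part of these lists in the Hox differences was not tested.

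Genes of trophoblast and decidua varied between embryos. Of the 5 measured, Plac1 was called higher, by 1.51. Prl8a2, a gene of the decidua, which is known to express Hoxa10 and Hoxa11 as well, measured 11.17, 5.68 and 6.66 in RFC1+/+ and 5.30, 4.49 and 7.84 in RFC1-/- embryos. It was highest in the RFC1+/+ embryo of litter 1, where Hoxa10 measured 6.97 and Hoxa11 6.86. Hoxa10 measured 6.96 in the RFC1+/+ embryo of litter 3. It was highest, at 7.26, in the RFC1-/- embryo of litter 3, where Hoxa11 measured 6.81. The part of Prl8a2 in the Hox values was not tested.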

How the data were processed

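Whole embryos were hybridized to Affymetrix mouse genome arrays, with RNA labelled in 2 cycles. The authors deposited log2 expression values for 45101 probe sets, made with RMA (version not given in the sources used here). Quantile normalization, a part of RMA, gives all arrays nearly the same distribution, so levels are relative. No column of values was left unused (0), and the variation filter of the methods had not been applied.

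Groups and litters came from the labels, and the methods pair the same littermates. Same-litter deviations from the group means correlated by 0.0138, -0.0293 and -0.196, and those of different litters by -0.15 to 0.176. Embryos of a litter were thus no more alike than embryos of different litters, and the litter block follows the design of the study. Of the probe sets, 34958 had 1 symbol, 932 several and 9211 none, and 3 Hox probe sets with several symbols were left out. For each of 18194 genes the probe set with the highest mean was used; of the measured Hox genes, 22 had 1 probe set and 11 had more. Differences were fitted with limma 3.58.1 in R 4.3.3, with the litter as a block, and adjusted by Benjamini-Hochberg. The dim floor was the 95th percentile of the means of receptor probe sets. The fit was tested on simulated data. Tables and plots used Python 3.11.15, pandas 2.3.3 and matplotlib 3.10.9. Arrays give no read depth, and their number limits the precision.

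Every measured member is named, and values in every embryo are given for each member called and for the largest rise and fall of each cluster; values of further members were chosen after they were seen. Of the 13 related lists, up to 4 called members with the largest change and any called against the majority are named, with others chosen after their values were seen. The members and lists were chosen with earlier results of these data known. List members without a probe set of a single symbol were left out. Alternatives were no replicate block, the variation filter, dim genes left out, other choices of probe set, an intensity trend, the random-variance paired test, 2 other normalizations, a threshold of 0.001 and each litter left out in turn; the fit of 5 arrays without the RFC1+/+ embryo of litter 2 was added after seeing the data.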

Additional observations from a re-analysis of the deposited data

How the results depend on the processing

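The 4 called Hox genes kept their call in 35 of 58 values under 15 alternatives. Their direction was kept in 58 of 58, but each gene was lower in all 3 litters. A change of test or threshold, or a litter left out, thus could not reverse it. The count of Hox genes called lower, 4, was 2 with the 1.5-fold variation filter, which left 15 of them in the fit, 2 with arrays centred on their median, 0 at an adjusted p under 0.001 in limma (11 at an unadjusted p under 0.05), 1 to 3 without 1 litter, and 1, Hoxc10, in the 5-array fit without the RFC1+/+ embryo of litter 2. The count called higher, 0, was 0 to 1 without 1 litter, the 1 being Hoxd1 without litter 3, the only litter in which it did not rise. Over all genes 968 were called, 537 with the variation filter, 0 at an adjusted p under 0.001 (3354 at an unadjusted p under 0.05), 355 to 1199 without 1 litter and 79 in the 5-array fit. The median of paralog groups 5 to 8, -0.10, was -0.62 with the variation filter, which left 3 of its genes, -0.21 in the 5-array fit and -0.19 to -0.01 without 1 litter. That of groups 9 to 13, 0.01, was 0.26 with the filter, -0.12 in the 5-array fit and -0.12 to 0.16 without 1 litter, below 0 without litter 2. The 5-array fit left out an embryo set apart by genes of these groups. Without the replicate block, 5 Hox genes were called lower and 1156 genes in all: Hoxb3 and Hoxc4 gained a call, both at an adjusted p of 0.0489, and Hoxc5 lost it at 0.0610. With probe sets averaged within genes, Hoxa4, Hoxa5 and Hoxc5 lost their calls (0.0840, 0.0536 and 0.0623) and Hoxb3 and Hoxc4 gained them. The cause of these changes was not tested. In 15 of the uncalled Hox genes the mean difference changed sign under some alternative.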

Other observations

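Antisense transcripts within the clusters were measured as well. Hoxb5os in litters 1, 2 and 3 had log2 levels of 12.00, 11.52 and 12.11 in RFC1+/+ and 12.07, 11.92 and 11.83 in RFC1-/- embryos. The RFC1+/+ embryo of litter 2 was the lowest of the 6, and the difference between genotypes was 0.06. On its brighter probe set Hoxd3os1 measured 8.40, 7.52 and 8.76 in RFC1+/+ and 8.35, 7.99 and 8.37 in RFC1-/- embryos, again lowest in that embryo, with a difference of 0.01. Both probe sets of Hoxa11os lay under the dim floor. None of the antisense probe sets was called.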
